A study of Caenorhabditis elegans with 3 samples.

Results

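Cyclic nucleotide phosphodiesterases are the enzymes that hydrolyse cAMP and cGMP, and Caenorhabditis elegans has 6 genes for them, pde-1 to pde-6. The 6 genes were taken by name from the 19973 nuclear protein-coding genes of the annotation. For each gene, every ChIP-seq peak whose summit lay in the gene body or within 6 kb on either side was collected, with its signal, its rank and its distance to each annotated transcript start. These windows covered 16.2 to 45.6 kb per gene and 158 kb in all. They held 16 peaks of the optimal list, which the authors thresholded for reproducibility, at 5 of the 6 genes.

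cAMP and cGMP are made by adenylyl and guanylyl cyclases, act through protein kinases and ion channels, and are removed by phosphodiesterases, so these enzymes set how long and where the signal lasts. UNC-55 is a nuclear receptor of the COUP-TF family that acts in the ventral D class of GABA motor neurons, where it keeps the synapses from being remodelled. Published genetic work has placed pde-4, a cAMP-specific enzyme, downstream of UNC-55 in these neurons.

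The series holds UNC-55 ChIP-seq (chromatin immunoprecipitation followed by sequencing) from whole larvae at the L2 stage, in 3 biological replicates of 1 group with no second condition. All samples came from strain NC1639, which carries on chromosome III the integrated transgene wdIs49, where the ttr-39 promoter (pttr39, active in GABA motor neurons) drives a UNC-55a::GFP fusion and dpy-20+ serves as the marker. The larvae were pooled males and females of unknown age. The tagged protein was therefore expressed from a transgene under another gene's promoter, and no sample without the transgene was analysed here. The labels name eGFP-unc-55 as the target in each replicate, and a note on replicate 3 alone describes a C-terminal GFP-FLAG tag. A fragment range of 150 to 350 bp is stated for replicates 1 and 2 and microtip sonication for replicate 3, so the preparation and replicate 3 itself cannot be told apart. Because whole larvae were used, fewer cells with a bound site and weaker binding in each cell cannot be told apart in any value given here.

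The data were peak lists in the ce11 (WBcel235) build. Replicates 1, 2 and 3 had relaxed lists of 30000, 30000 and 25262 peaks, the pooled list held 30000 and the optimal list 5993, which were the 5993 strongest peaks of the pooled list. Each peak carried a signal value written by the authors' peak caller, which was used here only to describe and rank peaks within a list. The optimal peaks had signals of 45.8 to 1225, with a median of 108.5. A rank of 1 is the strongest peak of a list, and a percentile of 100 the strongest. The percentile is the rank relative to the length of the list. The list of replicate 3 is shorter, so the same rank gives a lower percentile there. Means and SDs of percentiles over the replicates include this difference. A replicate's strongest peaks are its 5993 peaks of highest signal. The genes of the transgene itself, unc-55, ttr-39 and dpy-20, had 0 summits in the gene body and 6 kb on each side in any of the 5 lists. Of all protein-coding genes, 12.0% likewise had none, and the reason for the absence at the transgene's genes was not tested.

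An optimal summit lay in the window of 5 of the 6 phosphodiesterase genes, against 51.5% of all protein-coding genes. Among the 4137 coding genes whose windows fell in the range of those of the phosphodiesterase genes (16.2 to 45.6 kb), the share was 67.8%. The same 5 genes had a summit among the strongest peaks of each of the 3 replicates, where the background was 52.3%, 52.9% and 52.8%. They were also the only ones with a summit in the pooled list (66.8% of all coding genes) and in the whole lists of replicates 1, 2 and 3 (73.6%, 75.5% and 82.3%). The gene without a peak was pde-5. With 6 genes, 5 of 6 and a background of 67.8% are not far apart, and the account below turns on where the individual peaks lie.

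pde-2 and pde-4 had 4 optimal summits each, pde-1 and pde-6 had 3 each, pde-3 had 2 and pde-5 had 0. The median coding gene had 1. A count of 4 or more was found for 3.99% of all coding genes and for 8.51% of those with windows of like length, and a count of 3 or more for 10.3% and 17.8%. A count of 2 or more was found for 25.2% and 37.2%. The genes of like length were not matched to each phosphodiesterase gene. The windows of pde-4 (36.0 kb) and pde-3 (45.6 kb) were longer than the rest, which reached 22.0 kb at most. The shares are thus not matched in length for these genes. Per 10 kb of window, the optimal summits numbered 2.12 at pde-2, 1.51 at pde-1, 1.37 at pde-6, 1.11 at pde-4 and 0.438 at pde-3, and 1.01 over the 6 windows together, against 0.598 over the nuclear genome. The long gene pde-3 was thus the only one of the 5 with peaks whose density lay under that of the genome. The genome also holds sequence outside gene windows, and the density over the windows of other coding genes is not given.

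**Figure D1:**
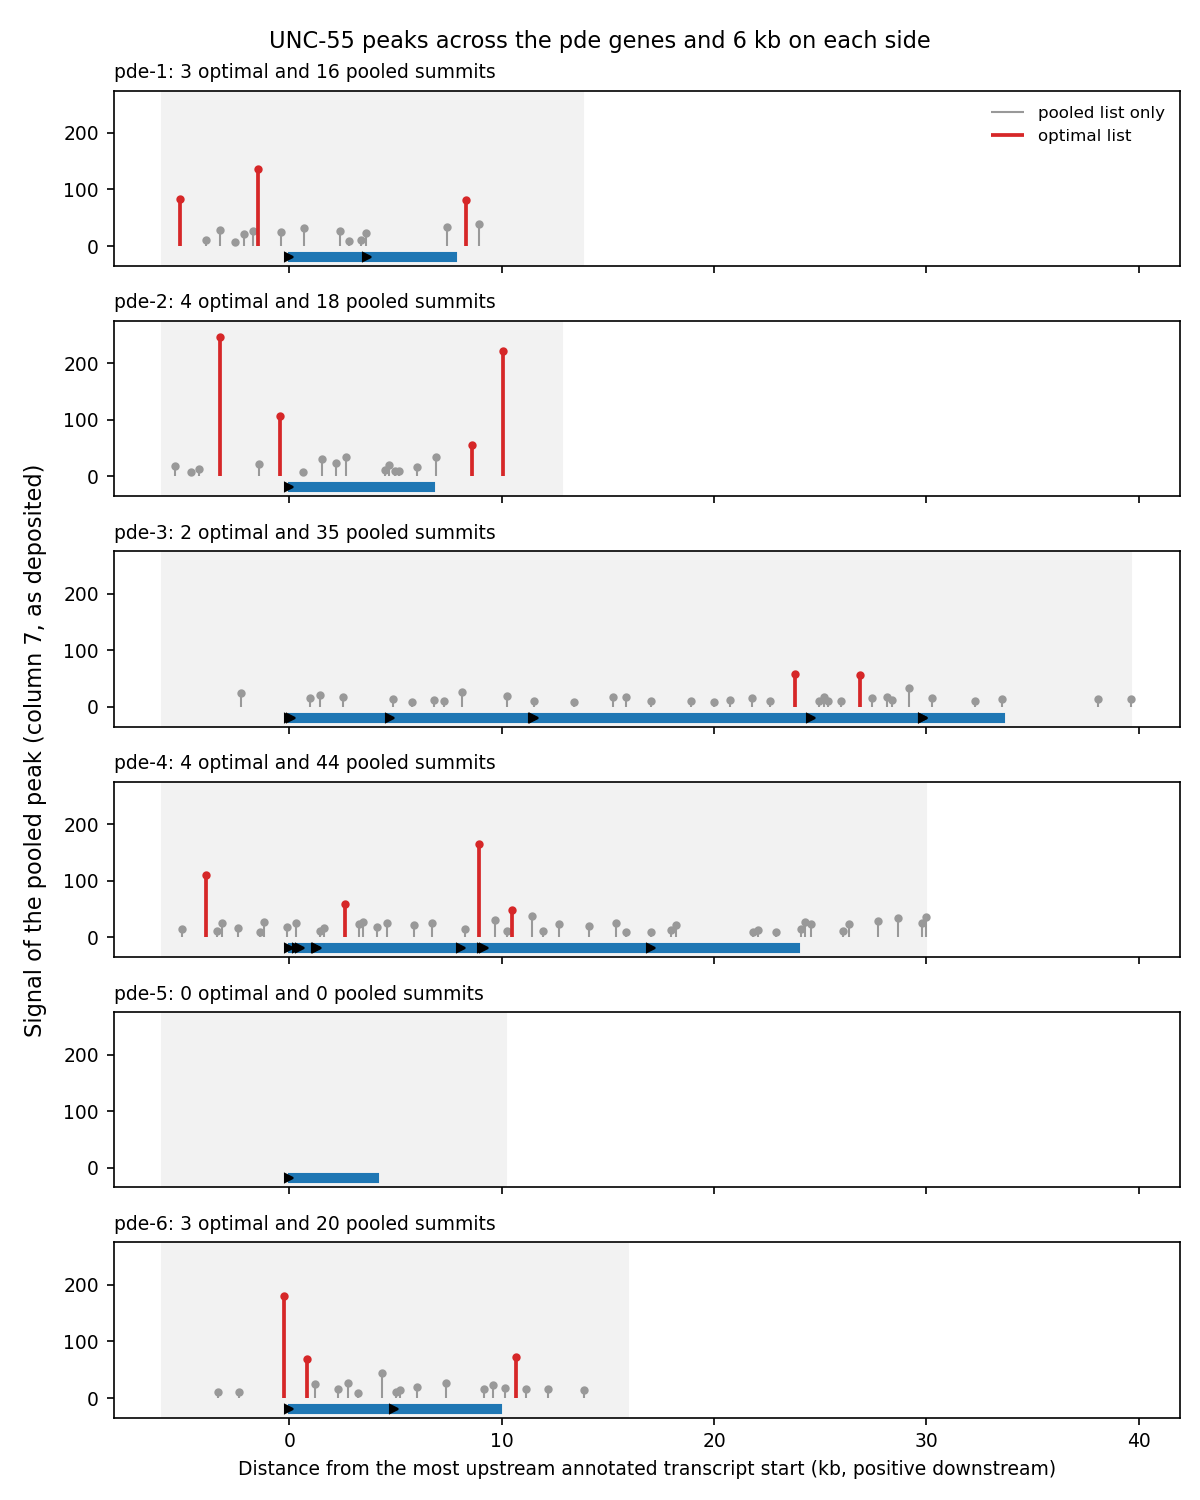
Signal of each pooled-list peak (y axis, units as deposited) against the distance of its summit from the most upstream annotated start of the gene (x axis, kb, positive downstream), 1 panel per gene. Red stems are optimal peaks and grey stems are peaks of the pooled list only, blue bars are the gene bodies, black arrowheads the annotated starts and grey shading the 6 kb window. The tallest stem, at 246, lies upstream of pde-2, and the panel of pde-5 holds none.

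Of the 16 optimal peaks, 6 lay upstream of the gene, 6 inside it and 4 downstream. The nearest protein-coding transcript start belonged to the phosphodiesterase gene itself for 11 of them and to a neighbouring gene for 5. By annotation of the summit, 7 were in introns, 5 were intergenic, 1 was in a 5′ untranslated region, 2 were in 3′ untranslated regions and 2 were in exons of non-coding RNA genes, with 1 peak counted both as intron and as non-coding exon. The number in coding exons was 0. Signals ran from 48.3 to 246 with a median of 81.9, against the median of 108.5 for all optimal peaks, and 6 of the 16 were above that median. The G and C content of the 101 bases around the summit ran from 29.7% to 62.4% with a median of 43.1%, against 43.6% for all optimal peaks.

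Transcript starts were examined with a promoter window from 2000 bp upstream to 500 bp downstream of each protein-coding transcript start. An optimal summit fell in such a window for 5 of the 6 phosphodiesterase genes, against 25.5% of all protein-coding genes. In the strongest peaks of replicates 1, 2 and 3 the counts were 5, 4 and 5 genes (4.67 ± 0.577, SD, n = 3), against 25.7%, 26.1% and 25.8% of all coding genes. The gene lost in replicate 2 was pde-3. Where only optimal peaks covered by the strongest peaks of both other replicates were kept, the count was 4, 4 and 3 genes without replicates 1, 2 and 3. A gene with more starts has more such windows, and pde-4 has 9 distinct starts and pde-3 has 8, and the 6 genes have 23. Counted by start, 6 of 23 had an optimal summit in the window, against 26.0% of the 29314 distinct coding starts of the annotation. The share by start was thus near the background while the share by gene was above it.

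pde-4 encodes a cAMP-specific enzyme (WBGene00020114, chromosome II, 7627250 to 7651246, minus strand). Its strongest optimal peak was not at the most upstream start but at the internal starts of R153.1d and R153.1f. The peak spanned positions 7642156 to 7642477 and its summit lay 176 bp upstream of R153.1d, 268 bp upstream of R153.1f and 815 bp downstream of the start of R153.1c, in an intron of the longer transcripts. Its signal was 165 in the pooled list (rank 1738) and 74.7, 58.0 and 34.7 in replicates 1, 2 and 3, at ranks 2251, 1608 and 1182. The 3 replicates placed it at a mean percentile of 94.2 ± 1.47 (SD, n = 3), so its standing was close to equal in all of them.

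The sequence around that summit, and those of a second peak upstream of pde-4 described next, of both kinds of pde-2 peak (upstream and downstream) and of the pde-3 peak nearest to a start, are shown because these peaks carry the results by gene. Each is 101 bases of the ce11 (WBcel235) RefSeq assembly centred on the summit, read 5′ to 3′ on the strand of the gene. They are chrII:7642290-7642390 and chrII:7655124-7655224 for pde-4, chrIII:8985116-8985216, chrIII:8982285-8982385 and chrIII:8971781-8971881 for pde-2, all on the minus strand, and chrII:14943485-14943585 for pde-3 on the plus strand. Capitals mark GAGAGA or its reverse complement TCTCTC, and the number in each name is the distance in bp from the nearest start of the gene, negative upstream.
pde-4 -176: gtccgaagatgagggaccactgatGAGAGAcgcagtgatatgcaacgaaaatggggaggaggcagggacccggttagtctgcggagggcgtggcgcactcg
pde-4 -3928: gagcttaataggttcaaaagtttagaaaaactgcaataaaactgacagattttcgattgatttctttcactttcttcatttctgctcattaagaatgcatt
pde-2 -3269: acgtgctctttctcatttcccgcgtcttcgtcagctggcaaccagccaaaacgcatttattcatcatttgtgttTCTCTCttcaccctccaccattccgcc
pde-2 -438: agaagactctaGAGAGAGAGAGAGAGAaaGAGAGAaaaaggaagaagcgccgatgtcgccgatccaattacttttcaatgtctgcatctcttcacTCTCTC
pde-2 +10066: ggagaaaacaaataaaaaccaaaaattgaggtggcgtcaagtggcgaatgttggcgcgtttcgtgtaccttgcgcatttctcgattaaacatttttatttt
pde-3 -754: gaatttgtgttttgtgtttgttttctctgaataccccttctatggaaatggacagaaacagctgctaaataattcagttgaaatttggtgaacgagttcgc

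The second pde-4 peak by signal lay upstream of the whole gene, 3928 bp from the start of R153.1e.1 in intergenic sequence (7655099 to 7655228). It had a pooled signal of 109 (rank 2977) and signals of 62.4, 46.0 and 4.12 in replicates 1, 2 and 3, at ranks 2836, 2287 and 14025. Replicates 1 and 2 placed it well inside their strongest peaks and replicate 3 far outside, and its mean percentile was 75.8 ± 27.1 (SD, n = 3), the widest spread of the 16 peaks. Replicate 3 differed from the others in its stated preparation, whose part in this difference was not tested.

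The remaining 2 optimal peaks of pde-4 were both intronic and weak. A peak 1326 bp downstream of the start of R153.1b (7648465 to 7648800) had a pooled signal of 59.6 (rank 4996), with signals of 26.3, 12.7 and 36.2 and ranks of 6159, 8041 and 1077 in replicates 1, 2 and 3. Here replicate 3 alone was high, the reverse of the upstream peak. A peak 1292 bp downstream of the start of R153.1f (7640612 to 7640947) lay past the 3′ end of that short transcript, in an intron of longer ones. It had a pooled signal of 48.3 (rank 5789), with 31.4, 13.0 and 7.32 at ranks 5347, 7867 and 7579. It was the weakest of the 16, and only replicate 1 held it among its strongest peaks.

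Kept apart by start, 2 of the 9 starts of pde-4, those of R153.1d and R153.1f, had an optimal summit in the promoter window. The other 7 had their nearest optimal summit outside it. For the 5 starts at the upstream end of the gene, the nearest optimal summit was inside the gene, 2613 bp downstream of R153.1e.1, 2277 bp of R153.1g, 2130 bp of R153.1h, 1356 bp of R153.1e.2 and 1326 bp of R153.1b. The start of R153.1c had one 815 bp downstream, and that of R153.1a, the most 3′ start, had none nearer than 6549 bp upstream. In the pooled list, which holds weaker calls, all 9 starts had a summit in the window. By gene, 43.2% of all coding genes had a pooled summit in a promoter window, and the share by start was not counted. The pde-4 window was dense in pooled summits, with 12.2 per 10 kb, so a summit in each promoter window does not set these starts apart. The nearest pooled summit lay 184 bp or less from every start but that of R153.1f, where it lay 268 bp away. At the starts of R153.1d and R153.1f that summit was the optimal one, and at the other 7 it was a pooled-only call.

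**Figure D2:**
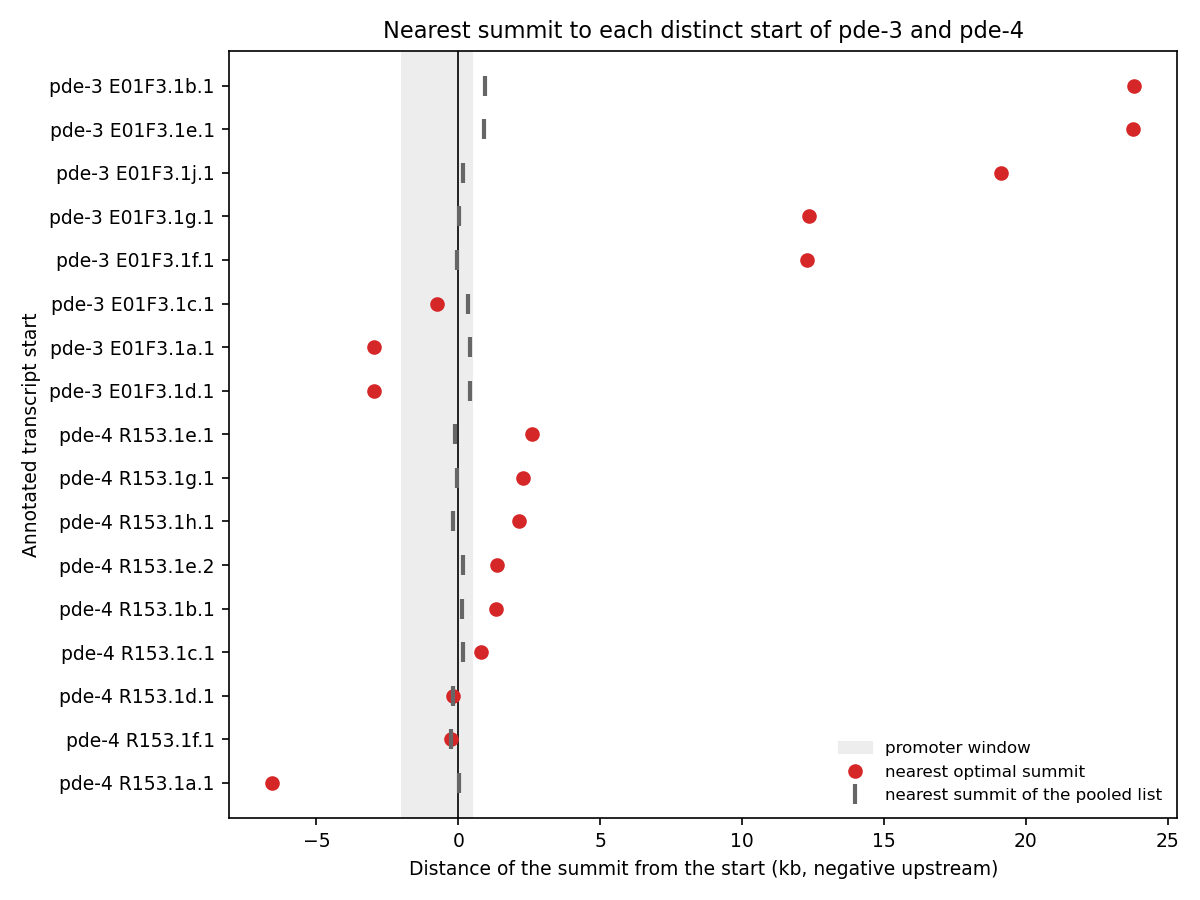
Distance (x axis, kb, negative upstream) from each distinct annotated start of pde-3 and pde-4 (y axis, 1 row per start, in order along the gene) to the nearest optimal summit (red points) and the nearest pooled summit (grey bars), with the promoter window shaded. Red points fall in the window for 1 of the 8 starts of pde-3 and 2 of the 9 of pde-4, while grey bars fall in it for 6 and 9.

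pde-2 encodes the worm member of the cGMP-stimulated family and has 1 annotated start (WBGene00011146, chromosome III, 8975069 to 8981897, minus strand). It had the strongest peak of the 16 and the highest density of optimal summits. That peak (8985029 to 8985292) lay 3269 bp upstream of the start, outside the promoter window, with the summit in the non-coding RNA gene R08D7.8 (WBGene00199513, 8985092 to 8985191). Its pooled signal was 246 (rank 776), and in replicates 1, 2 and 3 it had signals of 166, 63.1 and 27.8 at ranks 384, 1346 and 1787. It was among the strongest peaks of all 3 replicates, at a mean percentile of 95.7 ± 2.90 (SD, n = 3).

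The pde-2 peak in the promoter window, 438 bp upstream of the start (8982167 to 8982502, intergenic), was weaker. It had a pooled signal of 107 (rank 3056) and signals of 64.4, 33.6 and 12.2 at ranks 2729, 3339 and 4657, again among the strongest peaks of each replicate (87.1 ± 4.91 percentile, SD, n = 3). Both other peaks lay past the 3′ end and nearest to neighbouring genes. The stronger (8971707 to 8971921, pooled signal 222, rank 969) lay 61 bp upstream of a start of R08D7.4, and replicates 1, 2 and 3 gave it signals of 107, 63.4 and 50.2 at ranks 1218, 1330 and 466. At a mean percentile of 96.6 ± 1.40 (SD, n = 3) it stood highest of the 16 peaks in the replicates, and its nearest start was that of R08D7.4, not of pde-2. The weaker (8973134 to 8973469, pooled signal 55.4, rank 5282), in a 3′ untranslated region of R08D7.4 and 824 bp upstream of R08D7.5, had signals of 30.3, 19.6 and 8.66 at ranks 5488, 5502 and 6404.

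pde-6 encodes a further phosphodiesterase (WBGene00022389, chromosome I, 872755 to 882713, minus strand). Its strongest peak (882862 to 883108) lay 267 bp upstream of its main start, in the 5′ untranslated region of the gene Y95B8A.6 and 26 bp upstream of a start of that gene. Its pooled signal was 179.9 (rank 1487) and its signals in replicates 1, 2 and 3 were 92.5, 52.9 and 42.5 at ranks 1614, 1876 and 746, a mean percentile of 95.1 ± 1.71 (SD, n = 3). The peak was thus strong in every replicate, and its nearest start was not that of pde-6. When each summit was given to its nearest start alone, pde-6 had none in a promoter window and the count of genes fell to 4 of 6.

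Inside pde-6, a peak 812 bp downstream of the start (881733 to 882068, intron) had a pooled signal of 69.8 (rank 4466) and signals of 43.8, 10.5 and 12.3 at ranks 4083, 9838 and 4626 in replicates 1, 2 and 3. It was low in replicate 2 only. Past the 3′ end, a peak in a 3′ untranslated region of zfr-1 (871864 to 872199), a gene for a zinc finger RNA-binding protein, had a pooled signal of 72.0 (rank 4361) and signals of 31.0, 33.0 and 11.3 at ranks 5394, 3404 and 4987. The downstream start of pde-6, that of Y95B8A.10c, had its nearest optimal summit 4104 bp upstream. The strongest summit at the 6 genes that missed the optimal list lay 580 bp upstream of this start, in an intron (878209 to 878544).

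That peak had a pooled signal of 43.7 (rank 6195), just outside the list, and ranks of 5725, 7525 and 5234 in replicates 1, 2 and 3. The pde-4 peak with 48.3, at rank 5789, was the one just inside. The peak outside was thus among the strongest peaks in 2 replicates and the peak inside in 1.

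pde-1 encodes the worm member of the calcium- and calmodulin-regulated family (WBGene00011433, chromosome I, 13310887 to 13318716, minus strand). Its strongest peak (13320159 to 13320291, intergenic) lay 1495 bp upstream of the start of T04D3.3a, in the promoter window. It had a pooled signal of 136 (rank 2314) and signals of 72.0, 49.0 and 23.0 at ranks 2356, 2092 and 2346 in replicates 1, 2 and 3. Those ranks were the closest together of any of the 16 peaks, with a mean percentile of 92.0 ± 1.17 (SD, n = 3).

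A further pde-1 peak, 5164 bp upstream (13323712 to 13324047, intergenic), was nearer to gcy-35, a gene for a soluble guanylyl cyclase, whose start lay 1350 bp away. It had a pooled signal of 83.2 (rank 3904) and signals of 58.6, 11.4 and 14.5 at ranks 3047, 9030 and 3987, and was low in replicate 2. The third peak (13310248 to 13310583), past the 3′ end, fell on the tRNA gene WBGene00014503 within an intron of T04D3.8, 428 bp downstream of a start of T04D3.8. Its pooled signal was 80.6 (rank 3995), and its signals of 31.7, 40.2 and 4.67 at ranks 5302, 2739 and 12274 put it outside the strongest peaks of replicate 3. The internal start of pde-1, that of T04D3.3b, had its nearest optimal summit 4642 bp downstream, and in the strongest peaks of replicate 3 alone a summit lay 20 bp upstream of it, at rank 5436.

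pde-3 encodes the worm member of the cGMP-inhibited family and is the longest of the genes (WBGene00008443, chromosome II, 14919705 to 14953353, plus strand). Both of its optimal peaks were intronic, with signals below the median of the optimal list. The first (14943367 to 14943702), 754 bp upstream of the shared start of E01F3.1c and E01F3.1h, had a pooled signal of 58.0 (rank 5096) and signals of 41.3, 7.58 and 12.1 at ranks 4273, 14343 and 4712 in replicates 1, 2 and 3. The other (14946398 to 14946733), 2277 bp downstream of that start, had a pooled signal of 56.8 (rank 5175) and signals of 26.7, 27.0 and 18.8 at ranks 6106, 4167 and 3013. Replicate 2 was low for the one and replicate 1 just missed the other, so neither was among the strongest peaks of every replicate. The spread between replicates was wide for the first peak (73.1 ± 18.2 percentile, SD, n = 3) and narrower for the other (84.6 ± 4.41).

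Of the 8 distinct starts of pde-3, 1 had an optimal summit in its promoter window, that of E01F3.1c and E01F3.1h. The nearest optimal summit to the most upstream start, that of E01F3.1b, was 23830 bp downstream, to E01F3.1j 19112 bp and to E01F3.1g 12356 bp downstream. The starts of E01F3.1a and E01F3.1d had one 2971 and 2981 bp upstream. In the pooled list 6 of the 8 starts had a summit in the window, in a gene window with 7.67 pooled summits per 10 kb.

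pde-5 encodes a cGMP phosphodiesterase that acts in sensory neurons (WBGene00016328, chromosome I, 5196073 to 5200263, plus strand). No summit of the optimal, pooled or any replicate list lay in its gene body or within 6 kb of it. Of all protein-coding genes, 12.0% had none in any of the 5 lists, and pde-5 was 1 of those 2401 genes. The nearest pooled summit lay 6050 bp upstream of the start, 50 bp outside the window, with a signal of 78.7 (rank 4069, in the optimal list), and it was 115 bp upstream of fncm-1, a gene for a DNA repair helicase. The replicates had a summit at the same place, 6042, 6082 and 6052 bp upstream of pde-5, at ranks 4277, 6561 and 3629 in replicates 1, 2 and 3.

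On the other side of pde-5, the nearest pooled summit was 44.0 kb past the 3′ end, at mrpl-47, a gene for a mitochondrial ribosomal protein (signal 306). The gene therefore lay in a stretch of 54.3 kb without a pooled summit. Replicate 3 alone had a weak summit 9.31 kb past the 3′ end (signal 5.10, rank 11146), nearest to sem-2, a gene for a SoxC transcription factor.

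The leading peak of a gene is its optimal peak of highest pooled signal, which at pde-6 was nearest to a start of Y95B8A.6. Set in order by the mean percentile of the leading peak, the genes ran pde-2 (95.7), pde-6 (95.1), pde-4 (94.2), pde-1 (92.0) and pde-3 (73.1). The range over the replicates was 92.9 to 98.7 for pde-2, 93.8 to 97.1 for pde-6, 92.5 to 95.3 for pde-4 and 90.7 to 93.0 for pde-1. Each of these ranges overlapped its neighbour in the order. Compared within each replicate, pde-2 and pde-6 changed order between replicates, as did pde-6 and pde-4. Both pde-2 and pde-4 stood above pde-1 in all 3 replicates, although their ranges overlapped that of pde-1. The ranges of pde-6 and pde-1, which are not neighbours, did not overlap, and pde-6 stood above pde-1 in all 3 replicates. The range for pde-3, 52.2 to 85.8, lay below all 4 others. Its leading peak was chosen by a small margin, with a pooled signal of 58.0 against 56.8 for its other optimal peak. That other peak had a mean percentile of 84.6 and a range of 79.65 to 88.08, also below the 4 others. With 3 values each, an exact permutation test between 2 genes could not pass a threshold of 0.05, and none was run.

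**Figure D3:**
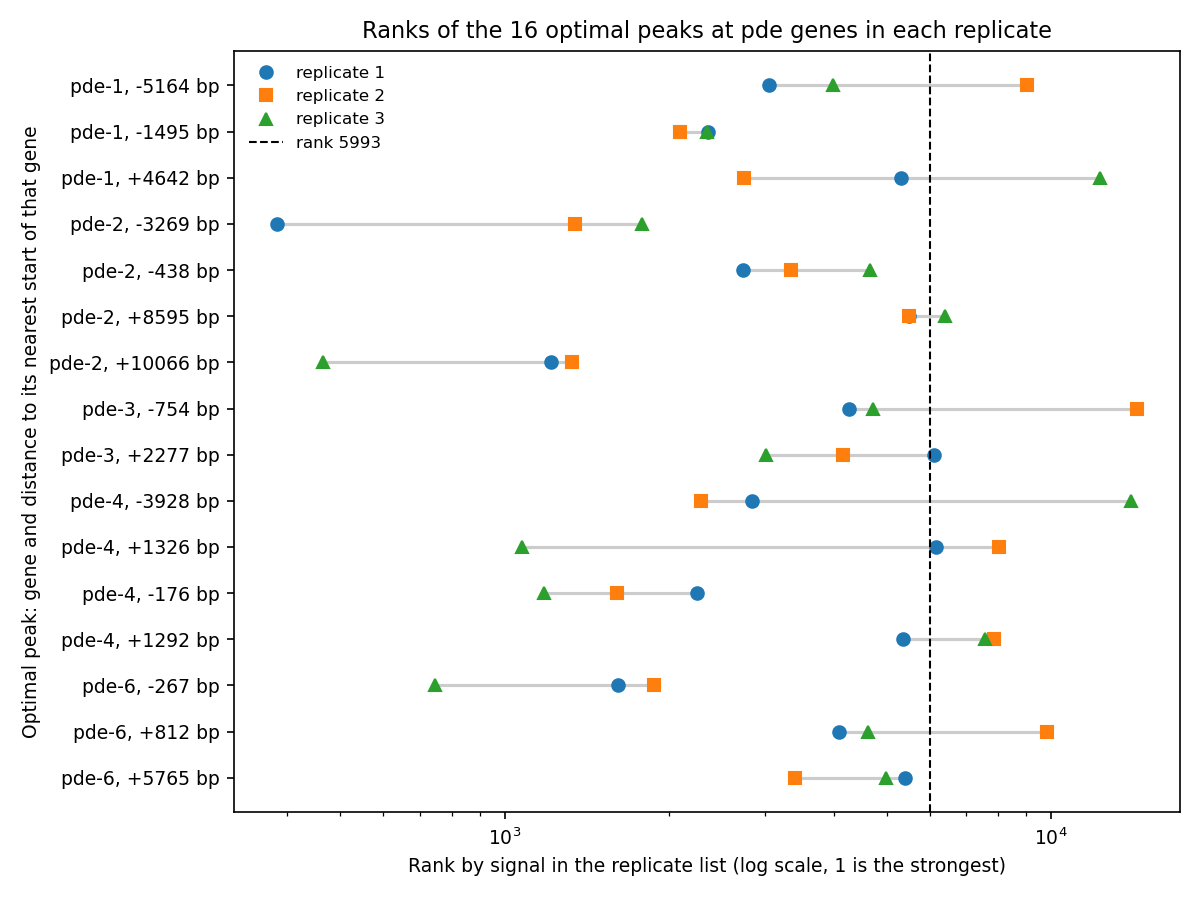
Rank by signal in each replicate list (x axis, log scale, 1 is the strongest) of the 16 optimal peaks at the phosphodiesterase genes (y axis, gene and distance of the summit in bp to its nearest start of that gene), with replicates as separate symbols and a dashed line at rank 5993. All 3 symbols lie left of the line for 7 of the 16 peaks, among them both upstream peaks of pde-2 and the peak 176 bp upstream of R153.1d, and the pde-4 peak at -3928 bp has replicate 3 far to its right.

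The strong peaks at these genes were first compared between replicates by overlap alone. Of the 6 peaks with a signal above the median of all optimal peaks, 5 overlapped one of the strongest peaks in each of the replicates. The exception was the pde-4 peak 3928 bp upstream, which did not in replicate 3. The same share over all optimal peaks above the median was not counted. The pooled signal that picked the 6 also comes from these replicates, so 5 of 6 is a description only. By the requirement that a peak among the strongest of a replicate cover 50% of the optimal peak's length, replicates 1, 2 and 3 covered 13, 10 and 12 of the 16. In all 3, 5 of the 16 were covered, against 56.5% of all optimal peaks. Among the strong peaks, the pde-6 peak 267 bp upstream was not so covered in replicate 1. Nor was the pde-2 peak nearest to R08D7.4 in replicate 2. Where 1 shared base was enough, 7 of 16 were found in all 3, against 68.6%. With the whole relaxed lists 14 of 16 were covered in all 3, against 82.0%. Without replicates 1, 2 and 3, the peaks covered in both others numbered 7, 9 and 8. The shares at the phosphodiesterase genes lay under the background for the strongest peaks and near it for the whole lists, and 10 of the 16 peaks had a signal below the median of the optimal list. That difference was not tested.

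The phosphodiesterase windows held 133 pooled summits, 16 at pde-1, 18 at pde-2, 35 at pde-3, 44 at pde-4, 0 at pde-5 and 20 at pde-6. That was 8.39 per 10 kb, against 2.99 per 10 kb over the nuclear genome. The genome also holds sequence outside gene windows. The pooled density over the windows of other coding genes is not given, so whether 8.39 is high for a gene window cannot be told. Of the 133, 12.0% were in the optimal list, against 19.98% of the whole pooled list. The share was 22.2% at pde-2, 18.75% at pde-1, 15.0% at pde-6, 9.09% at pde-4 and 5.71% at pde-3. The long genes pde-3 and pde-4 thus had many weak pooled summits per optimal one. At pde-4 the whole replicate lists had 42, 41 and 26 summits in replicates 1, 2 and 3, and at pde-3 they had 25, 29 and 24.

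The 117 pooled-only peaks had signals from 8.04 to 43.7 with a median of 16.3. A peak of all 3 replicates overlapped 40 of them, 2 replicates overlapped 43, 1 replicate overlapped 28 and none overlapped 6. These counts were not made over the whole pooled list, so they have no background. A single replicate peak could also overlap more than 1 pooled peak. The pooled-only peak 1695 bp upstream of pde-1 thus shared its replicate peaks with the optimal peak 1495 bp upstream. The strongest pooled-only peak per gene had a signal of 43.7 at pde-6, 38.8 at pde-1, 37.9 at pde-4, 34.4 at pde-2 and 33.7 at pde-3. The one at pde-4, in an intron 2272 bp downstream of the start of R153.1f and past its 3′ end, ranked 6513, 8942 and 4117 in replicates 1, 2 and 3. The one at pde-3 lay in an intron 633 bp upstream of the start of E01F3.1a, at ranks 6730, 9119 and 15512. The one at pde-2 lay in an intron 2686 bp downstream of the start and had no overlapping peak in replicate 2.

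**Figure D4:**
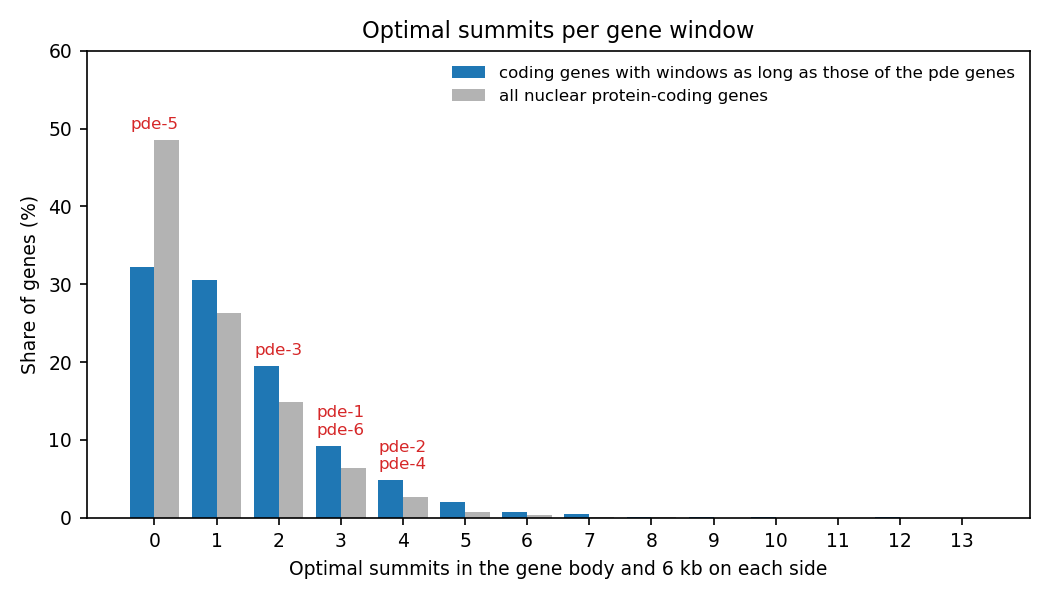
Share of genes (y axis, %) by the number of optimal summits in the gene body and 6 kb on each side (x axis), for the 4137 coding genes with windows as long as those of the phosphodiesterase genes (blue) and for all 19973 nuclear protein-coding genes (grey), with the phosphodiesterase genes named above their own count. pde-2 and pde-4 stand at 4, which 8.51% of the genes of like window length reach or pass, and pde-5 stands at 0. Those genes span the whole range of the phosphodiesterase windows and are not matched to each gene.

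AGGTCA is a core element of nuclear receptor sites, and both strands of the 101 bases around each summit were searched for it. It was found at 0 of the 16 phosphodiesterase summits, against 1.37% of all optimal summits. Windows of the same length centred 300 bp to either side of all optimal summits held it in 2.45% and 2.82% of cases. The count stayed at 0 of 16 within 25 bp (0.534% of all optimal summits), within 100 bp (3.22%) and for AGGTCA or GGGTCA (2.55%). At such background shares 0 of 16 says only that these letters are not in these windows.

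The repeat GAGAGA was chosen after the sequences had been seen and is a description only. On both strands, with overlapping matches counted, it was found at 5 of the 16 phosphodiesterase summits, against 26.9% of all optimal summits and 6.49% and 6.57% of the windows 300 bp to either side. The share at the phosphodiesterase genes was near that of all optimal peaks. It occurred 8 times at the peak 438 bp upstream of pde-2 and 5 times at the peak 267 bp upstream of pde-6. It occurred 2 times at the weaker downstream peak of pde-2 and once each at the peaks 3269 bp upstream of pde-2 and 176 bp upstream of R153.1d of pde-4, and at the other 11 it was not found.

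Among the other genes of cyclic nucleotide signalling, 10 of 49 (20.4%) had an optimal peak within a promoter window, against 25.5% of all coding genes. The strongest peaks of replicates 1, 2 and 3 gave 11, 11 and 13 of the 49. Of the 4 adenylyl cyclase genes, which make cAMP, 2 had one, acy-1 with a signal of 324 at 63 bp upstream and acy-4 with 52.1 at 218 bp upstream. Of the 33 guanylyl cyclase genes, which make cGMP, 4 had one (12.1%), the strongest at gcy-28 (247), gcy-33 (132) and gcy-35 (108). The peak of acy-1 was stronger than any peak at the phosphodiesterase genes, and that of gcy-28 about equal to the strongest.

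The genes that act downstream of the cyclic nucleotides were counted in the same promoter windows, not over the gene body and 6 kb. There kin-1, which encodes the catalytic subunit of cAMP-dependent protein kinase, had a peak with a signal of 181 at 287 bp upstream, and the gene of its regulatory subunit, kin-2, had an optimal summit in the gene body and 6 kb on each side but none in a promoter window. Of the 2 genes for cGMP-dependent kinase, egl-4 had a promoter peak of 135 and pkg-2 had none. Both crh-1, the gene for the cAMP-responsive transcription factor CREB, and crtc-1, the gene for its coactivator, had a promoter peak, with signals of 176 and 71.5. Of the 6 cyclic nucleotide-gated channel genes, which include tax-2 and tax-4, 0 had an optimal and 2 a pooled summit in a promoter window, and 2, tax-4 and cng-2, had an optimal summit in the gene body and 6 kb on each side. Over that wider window an optimal summit was found for 5 of the 6 phosphodiesterase genes, 25 of the 49 other pathway genes and 51.5% of all coding genes.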

How the data were processed

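UNC-55 was immunoprecipitated from whole L2 larvae in 3 samples that the labels call biological replicates. Where nothing says they came from separate cultures, spreads measure only these samples. The authors deposited narrowPeak lists: per the notes that accompany the files, 1 control alignment was used to call a relaxed list per replicate and a pooled list, and the optimal list holds the peaks that passed the irreproducible discovery rate threshold. The caller and the aligner, with their versions, were not given in the sources used here (labels, notes and files). The signal of each peak is the authors' own, as deposited, with no stated relation to depth. The deposited −log10 of the q-value was 4.12 for all 16 optimal peaks at the members, the same value throughout the optimal list, and was not used further. Depth is unknown, so no interval was computed. Control reads were not analysed here and the ce10 lists were not used. The pooled list and those of replicates 1 and 2 stop at 30000 peaks, which sets where they end.

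Genes came from Ensembl release 115 (WBcel235) and sequence from the RefSeq assembly of the same build, after chromosome names and lengths had been compared. Summits were counted in the gene body and 6 kb on each side, and in promoter windows (2000 bp upstream to 500 bp downstream) of protein-coding transcript starts. In a replicate, the overlapping peak of highest signal gave the value. Coverage meant 50% of the optimal peak's length. No test was run: where a background is given, it is the same count over all coding genes or all optimal peaks. Text names all 6 genes with every optimal peak, up to 3 further pooled peaks each, the nearest gene of a named peak, up to 3 genes of highest signal per pathway set and the genes of the transgene. Pathway genes without a peak are named outside this rule. Those genes and lists were chosen with earlier results of these data known. Replicate-only peaks were named after their values were seen. The counting was tested on simulated data. Python 3.11.15, pandas 2.3.3, numpy 2.4.6 and matplotlib 3.10.9 were used. Alternatives changed the windows, the list, the coverage, the transcript starts and the replicates, 1 at a time.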

Additional observations from a re-analysis of the deposited data

How the results depend on the processing

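No paired analysis between conditions was possible because the series holds 1 group. Of 65 alternatives, 52 left the value within the spread between replicates or, for counts, within 1.5 times, and 13 moved it. Some of the 52 could not have moved. Leaving out 1 of 3 replicates cannot shift a mean percentile beyond the spread of the same 3 values. With 0 AGGTCA matches within 50 bp there can be none within 25 bp. Taking the replicate peak of nearest summit returned the same percentiles. The 52 are therefore no measure of robustness. The count of genes with an optimal summit, 5, was 3 in the gene body alone, and 6 with 10 kb on each side or any base of the peak, since the peak beyond pde-5 then entered. The 16 summits became 6 in the gene body alone, 6 in the upper part of the list by signal (its strongest 2996 peaks) and 133 in the whole pooled list. Leaving out a replicate, which keeps only optimal peaks covered by the strongest peaks of the other 2 (3741 to 4177 of 5993), gave 7 without replicate 1, 8 without replicate 3 and 9 without replicate 2. The main counts of summits and of genes with a promoter summit carry no such filter, so they could only stay or fall. The optimal list itself still came from all 3 replicates. The 5 genes with a promoter summit were 3 in that upper part and 3 without replicate 3 and 4 without replicate 1 or 2. The 5 peaks found in every replicate became 14 with the whole lists and 7 to 9 without a replicate. Both changes relax the requirement, so this count could only stay or rise. The 10 pathway genes became 6 in that upper part. Peak lists without reads carry no depth, so a missing peak, as at pde-5, is only a missing call.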

Other observations

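Among the strongest peaks of single replicates, 12 in the phosphodiesterase windows overlapped no optimal peak, 9 of them in replicate 3, 2 in replicate 1 and 1 in replicate 2. Of the 9 in replicate 3, 4 were at pde-4, at ranks 4038, 4117, 4776 and 5645. The one at rank 4776 lay in an intron 191 bp downstream of the start of R153.1c, and those at ranks 4038 and 5645 lay 3426 and 1296 bp upstream of the gene. In replicate 3 pde-4 thus had 6 summits among the strongest peaks, against 3 in replicate 1 and 2 in replicate 2. These peaks were looked for after the values had been seen, and no test was run on them. Peaks without an optimal overlap were not counted genome-wide for any replicate, so the 12 have no background. Whether the larger number from replicate 3 is particular to these genes, or to pde-4, therefore cannot be told.

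Of the 16 optimal peaks at the phosphodiesterase genes, 10 were exactly 336 bp wide, against 44.4% of all optimal peaks. The peaks of highest signal at pde-1, pde-2, pde-4 and pde-6 had other widths, and the part of peak width in the signal was not tested.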
